A study of Mus musculus with 32 samples.

Results

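The genes described here are 10 mouse genes grouped as activated late in reprogramming to pluripotency, a label not tested here: Dppa2, Dppa3, Dppa4, Dppa5a, Utf1, Tdh, Lin28a, Lin28b, Trim71 and Sall4. They were taken by name from the 21887 protein-coding genes of the gene table, and every ATAC-seq peak with its centre in the gene body or within 50 kb of it was assigned to them (GRCm38), once where windows overlap. In all 15 peak lists together 1432 of 1839889 peaks fell to the 10 genes. ATAC-seq uses a transposase that cuts into accessible DNA and tags it for sequencing, so the data show open chromatin near these genes and not their transcription.

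The 32 samples were mouse embryonic fibroblasts (OG2-MEFs, which carry a GFP reporter of Oct4) and cells derived from them with the factors Oct4, Sox2, Klf4 and c-Myc (OSKM), cultured with vitamin C. In the TetOn system, an inducible lentivirus with doxycycline, cells received control shRNA (shLuci) or CTCF shRNA and were taken at day 0 (2 samples per group) or sorted. The sorted groups were Thy1+ (3 samples, days 3, 6 and 9), SSEA1-Thy1- (2 samples, days 6 and 9), SSEA1+ (2 samples, days 6 and 9) and GFP+ (2 samples, day 12). Unsorted cells, 2 samples per group, were taken at day 10 and at day 12. The day 10 cells received OSKM with a control vector, with CTCF overexpression, or with both CTCF overexpression and Smarca5 shRNA, and the day 12 cells received control or Smarca5 shRNA. CTCF is the zinc finger protein of insulators and domain borders, and Smarca5 is the ATPase of ISWI remodelling complexes. Each group has 1 deposited peak list, so no value has a replicate check and no test over samples was possible. The Thy1+, SSEA1-Thy1- and SSEA1+ lists join samples of different days. Fewer cells with an open site and weaker opening in every cell cannot be told apart in these bulk lists.

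The 10 genes are grouped for their links to pluripotent cells. Dppa2 and Dppa4 are partner proteins with SAP domains that bind chromatin and prime early embryonic genes. Dppa3, also called Stella, protects the early embryo's genome from changes in DNA methylation, Dppa5a is a KH-domain RNA-binding protein, and Utf1 is a chromatin-bound factor. Tdh, threonine dehydrogenase, feeds glycine and one-carbon metabolism in mouse stem cells. Lin28a and Lin28b bind the precursor of let-7 microRNAs and block their maturation, and Trim71 is itself a let-7 target that represses messenger RNAs. Sall4 is a zinc finger factor that works with Oct4.

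After merging, the lists held from 43618 peaks (day 12 control) to 213386 (Thy1+ with CTCF shRNA). The depth in reads is unknown, and a longer list can hold more peaks near any gene. Peak positions were shared within the day 0 and sorted lists, within the day 10 lists and within the day 12 lists, but hardly between these sets. Peak numbers are therefore compared within a set only. Sites of the day 0 and sorted lists were also looked up in the day 10 and day 12 lists. There a site is called open where a peak overlaps it by 1 bp, even if its position differs. In the control lists, taken from day 0 through Thy1+, SSEA1-Thy1- and SSEA1+ to GFP+ cells, fibroblast marker genes had 198, 228, 162, 116 and 88 peaks, and pluripotency markers 73, 107, 98, 109 and 120. Epithelial markers had 62, 94, 90, 87 and 95. The 4 haematopoietic markers had 53, 72, 57, 45 and 37, and the 4 endothelial markers 54, 78, 51, 48 and 39. The 4 neural markers had 28, 37, 45, 44 and 32. Of the haematopoietic markers 2 had a gene-end peak in the day 0 control and 2 in the GFP+ control, and of the endothelial markers 3 and 2 did. In the 10 day 0 and sorted lists Cd68, Kdr and Tek had one throughout, and Ptprc and Pecam1 had none.

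From day 0 to GFP+ cells the 10 genes had more accessible sites while the whole list was shorter. They had 87 peaks in the day 0 control list and 109, 96, 97 and 127 in the 4 sorted control lists in that order, whereas the lists went from 153962 to 91337 peaks. Their share of the list was 0.0565% at day 0 (exact Clopper-Pearson 95% interval 0.0453 to 0.0697) and 0.139% in GFP+ cells (0.116 to 0.165). These intervals cover counting error over peaks only. The log2 ratio of their peaks minus that of the lists was 1.30 (0.89 to 1.71). Of the 10 genes, 9 had more peaks in GFP+ cells and Lin28b had fewer. By the 1.5-fold rule, on peak number plus 1, 4 of the 10 were higher (Dppa2, Dppa4, Lin28a and Sall4), against 8.80% of 20391 genes with a peak in either list. Lin28b alone was lower, 1 of 10, against 32.5% of those genes. Dppa2 and Dppa4 are neighbours, and all 6 GFP+ control peaks of Dppa4 also count for Dppa2, so they are not independent. The relative log2 had a median of 1.24 over the 10 genes and of 0.52 over all genes. Some marker lists moved with the 10 genes. The relative log2 was 1.37 for the 6 epithelial markers, of which 3 were higher by the 1.5-fold rule. It was 1.47 for the 8 pluripotency markers, of which 4 were higher. For the 4 neural markers it was 0.95, with none higher and 1 lower. It was 0.28 for the endothelial, 0.23 for the haematopoietic and -0.42 for the fibroblast markers. The part of these lists in the result was not tested.

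**Figure D1:**
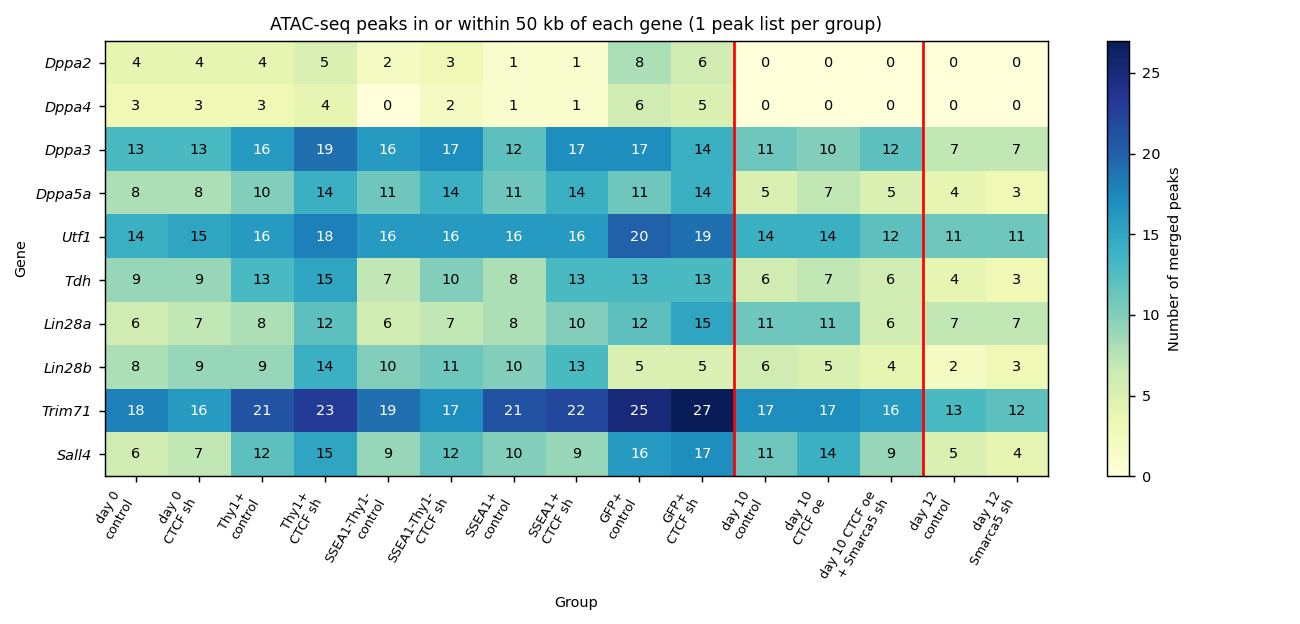
Number of merged ATAC-seq peaks in or within 50 kb of each gene (rows) in each of the 15 lists (columns); colour and figures give the same number, sh is shRNA and oe is overexpression. Red lines part the day 0 and sorted lists, the day 10 lists and the day 12 lists. Dppa2 and Dppa4 have no peak in the last 5 columns, and Lin28b is lower in both GFP+ lists than in the other sorted lists.

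Peaks at gene starts and ends were counted next. A promoter peak was counted as a peak within 1 kb of the gene start for Utf1, Lin28a, Lin28b and Trim71, whose start and strand are in the promoter table, and within 1 kb of either gene end for the other 6. In the 5 control lists in order, 4, 5, 6, 5 and 10 of the 10 genes had one. By gene ends alone the counts are the same, against 67.7%, 70.3%, 68.7%, 67.9% and 67.6% of all genes. All 6 genes with no gene-end peak at day 0 had one in GFP+ cells (Dppa2, Dppa3, Dppa4, Dppa5a, Tdh and Lin28a), against 13.7% of the 7060 genes without one. None of the 4 with one at day 0 lost it, against 6.75% of the 14827 genes with one.

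Dppa4 and Dppa2 lie side by side on chromosome 16, at chr16:48283735-48294292 and chr16:48310274-48319513, and share most of their window. In the 5 control lists Dppa2 had 4, 4, 2, 1 and 8 peaks. Dppa4 had 3, 3, 0, 1 and 6 in the same order. Both were thus lowest in the middle populations and highest in GFP+ cells. Of the 12 sites of the Dppa2 window 7 were opening, that is without a peak in the day 0 control and with one in the GFP+ control, and none was open in all 5 control lists. The sites at the Dppa4 end, chr16:48282735-48283134 and chr16:48284210-48284609, and a site at the Dppa2 end, chr16:48308980-48309379, were open in both GFP+ lists and in no other list. The site that covers the Dppa2 end itself, chr16:48310124-48310523, was open in both GFP+ lists and in Thy1+ cells with CTCF shRNA. A site between the genes, chr16:48303649-48304048, was open at day 0 and in Thy1+ cells, absent in both middle populations, and open again in GFP+ cells. In the 5 unsorted lists of day 10 and day 12 neither gene had any peak, and the share of all genes without a peak was 11.3%, 12.6%, 13.8%, 16.0% and 16.4% there.

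**Figure D2:**
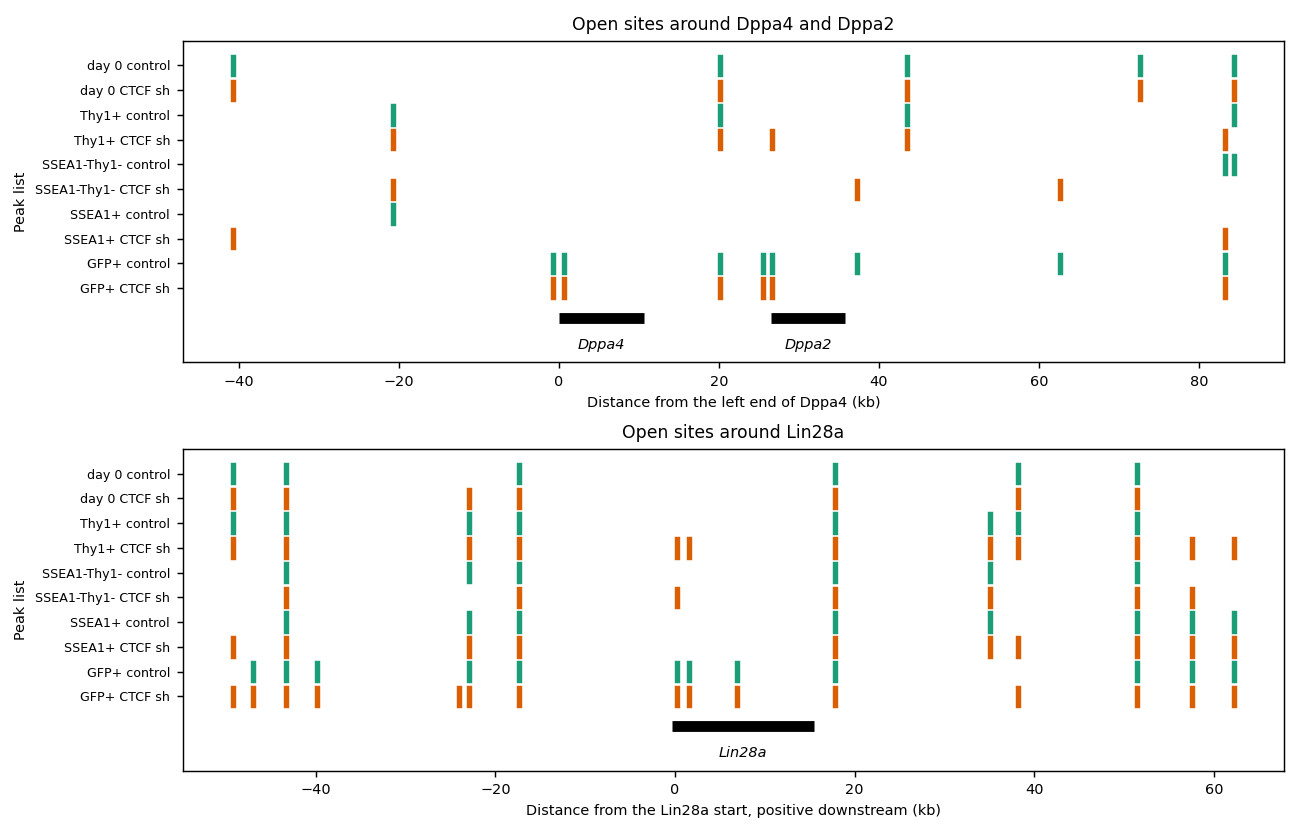
Sites open in each of the 10 day 0 and sorted lists (vertical marks; green for control shRNA, orange for CTCF shRNA) against distance in kb from the left end of Dppa4 (top) and from the Lin28a start (bottom); black bars are the genes. At the left end of Dppa4 marks stand in the GFP+ rows only, and at the Lin28a start in both GFP+ rows and in the Thy1+ and SSEA1-Thy1- rows with CTCF shRNA.

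Dppa3 (chr6:122626424-122630271) had 13, 16, 16, 12 and 17 peaks in the 5 control lists. Its end was open late: chr6:122626095-122626494 had a peak in both GFP+ lists only. A site inside the gene, chr6:122627526-122627925, was open in all 10 lists, and so was chr6:122633362-122633761 beyond it. Sites in the flanks were open in earlier populations. The sites chr6:122608466-122608865, in the body of Gdf3, a TGF-beta family ligand of pluripotent cells, and chr6:122624448-122624847, between Gdf3 and Dppa3, were absent at day 0 and open in all 8 sorted lists and all 5 unsorted lists.

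Dppa5a (chr9:78367052-78368199) had 8, 10, 11, 11 and 11 peaks in the 5 control lists. The site at its end, chr9:78368019-78368418, skipped a population: it was open in both SSEA1-Thy1- lists, in Thy1+ cells with CTCF shRNA and in both GFP+ lists, and in neither SSEA1+ list. It was also open at day 10 in the control and with CTCF overexpression, but not with added Smarca5 shRNA, and in neither day 12 list, where the control had another peak within 1 kb of a gene end. Its other end site, chr9:78365953-78366352, was open in both GFP+ lists only.

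Utf1 (chr7:139943856-139945112) had an accessible start before reprogramming began. The site chr7:139943956-139944355, which runs from 100 to 499 bases downstream of the start, was open in all 15 lists. Around it the window went from 14 peaks at day 0 to 16, 16, 16 and 20 in the sorted controls. The additional sites near the gene were late ones: chr7:139945500-139945899, just beyond the gene, was open in the SSEA1+ control and both GFP+ lists, and chr7:139940643-139941042 upstream in both GFP+ lists only.

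Tdh (chr14:63492347-63509092) had 9, 13, 7, 8 and 13 peaks in the 5 control lists, with the lowest numbers in the middle populations. Its end site chr14:63508616-63509015 was absent in the day 0 control and open in the day 0 list with CTCF shRNA, in all 8 sorted lists and in 4 of the 5 unsorted lists. Inside the gene, chr14:63500272-63500671 was open in all sorted lists, chr14:63507492-63507891 in all sorted lists but the Thy1+ control, and chr14:63501816-63502215 in both GFP+ lists only. One gene thus held sites of early, middle and late opening.

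Sall4 (chr2:168748332-168767201) had the largest change of peak number among the 10 genes, from 6 at day 0 to 12, 9, 10 and 16 in the sorted controls. The site at its end, chr2:168767053-168767452, was open in all 15 lists. Of its 21 sites 12 were opening, and of these 6 were first open in Thy1+ control cells, among them chr2:168761066-168761465 and chr2:168761935-168762334 in the gene body. Those first seen in GFP+ control cells included chr2:168750134-168750533, in the body near the other end.

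Lin28a, Lin28b and Trim71 act in one pathway, and their promoters are shown because the genes differ in when the start was open. The sequences are the 250 bases upstream of the start in RefSeq (GRCm38.p6), 5′ to 3′ on the gene's own strand, with CG pairs in capitals. Utf1 is added as a gene with an open start in all lists. All 4 genes of the 10 with an entry in the promoter table are shown. Only the start site of Lin28a overlaps its printed stretch, by 28 bases. The start sites of Utf1, Trim71 and Lin28b (395 to 898 bases downstream) share 0 bases with theirs. For these genes the CG pairs and motif letters describe sequence outside the start site.
Lin28a, chr4:134018817-134019066, minus strand: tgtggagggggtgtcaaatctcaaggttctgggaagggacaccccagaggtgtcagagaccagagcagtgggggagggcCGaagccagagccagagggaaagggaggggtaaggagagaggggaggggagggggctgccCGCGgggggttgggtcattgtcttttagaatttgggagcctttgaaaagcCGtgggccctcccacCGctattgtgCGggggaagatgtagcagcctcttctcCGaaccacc
Lin28b, chr10:45470202-45470451, minus strand: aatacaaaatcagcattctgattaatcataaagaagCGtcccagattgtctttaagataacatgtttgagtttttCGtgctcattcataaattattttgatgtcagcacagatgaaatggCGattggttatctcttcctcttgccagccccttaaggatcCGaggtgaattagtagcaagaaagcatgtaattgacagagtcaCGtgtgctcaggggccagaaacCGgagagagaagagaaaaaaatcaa
Trim71, chr9:114564370-114564619, minus strand: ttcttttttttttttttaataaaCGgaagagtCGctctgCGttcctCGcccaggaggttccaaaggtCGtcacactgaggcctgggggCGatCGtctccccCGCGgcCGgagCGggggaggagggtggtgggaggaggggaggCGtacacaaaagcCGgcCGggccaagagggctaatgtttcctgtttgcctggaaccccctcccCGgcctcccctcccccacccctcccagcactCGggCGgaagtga
Utf1, chr7:139943606-139943855, plus strand: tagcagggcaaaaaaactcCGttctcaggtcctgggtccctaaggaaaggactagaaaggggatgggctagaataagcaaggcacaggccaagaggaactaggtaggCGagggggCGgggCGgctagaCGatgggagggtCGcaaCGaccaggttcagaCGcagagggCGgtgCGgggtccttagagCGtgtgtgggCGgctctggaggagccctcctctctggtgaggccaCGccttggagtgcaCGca
Trim71 holds 17 CG pairs and Utf1 14, while Lin28a holds 7 and Lin28b 6, which is the median of all promoters of the table. Of genes with 14 or more pairs 97.3% had a start peak in the day 0 control, and of those with 0 to 7 pairs 27.1% had one. Of the 5308 genes of that last group without a start peak at day 0, 7.71% had one in GFP+ cells, and Lin28a was among them. Lin28b is in that group too and had a start peak at day 0. None of the letters ATGCAAAT (POU), CATTGTT (SOX), GGGNGTGG (KLF), AAGGTCA (ESRRB), or TGANTCA (AP-1), nor the core CTCF motif, occurs on either strand in the 4 promoters, taken with the 50 bases after the start. Of 32851 promoters of the same length 1.74%, 3.78%, 17.6%, 4.72%, 7.81% and 2.43% hold them, and matches of different motifs may overlap.

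Lin28a (chr4:134003330-134019196) had 6 peaks at day 0 and 8, 6, 8 and 12 in the sorted controls. Its start site, chr4:134018445-134018844, reaches from 371 bases downstream to 28 bases upstream of the start, so it shares 28 bases with the printed stretch. It was absent in the day 0, Thy1+, SSEA1-Thy1- and SSEA1+ controls and open in the GFP+ control. With CTCF shRNA it was open in Thy1+, SSEA1-Thy1- and GFP+ cells, and in SSEA1+ cells it was absent. It was open in all 5 unsorted lists. A site in the body, chr4:134011750-134012149, was open in both GFP+ lists and in 4 of the 5 unsorted lists.

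Lin28b (chr10:45376617-45486314) went the other way. It had 8, 9, 10 and 10 peaks in the day 0, Thy1+, SSEA1-Thy1- and SSEA1+ controls and 5 in the GFP+ control. Its 16 sites held 5 transient ones, which were open in a middle population and closed at day 0 and in the GFP+ control, 4 closing ones and 1 opening one. The start site chr10:45469303-45469806 was nevertheless open in all 10 day 0 and sorted lists. The 5 peaks left in GFP+ cells include that start, a site at the upstream end of the gene record (chr10:45486143-45486542) and 2 sites at ends of its neighbour Bves.

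Trim71 (chr9:114511268-114564369) had 18 peaks at day 0 and 21, 19, 21 and 25 in the sorted controls. It had the most sites of the 10 genes, 33, of which 12 were open in all 5 control lists and 11 were opening. The start site chr9:114563824-114564223 was open in all 15 lists. Opening sites in the gene body ranged from early (chr9:114549149-114549548, open in all 8 sorted lists) to late (chr9:114512651-114513050, in both GFP+ lists only).

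Cutting the windows into sites gave 183 sites over the 10 day 0 and sorted lists, and 206686 in the windows of all genes. Opening sites made up 72 (39.3%, interval 32.2 to 46.8) near the 10 genes and 16.5% near all genes. Closing sites made up 32 (17.5%, interval 12.3 to 23.8) and 35.9%. Transient sites made up 16 (8.74%) and 22.7%, and sites open in all 5 control lists 44 (24.0%) and 18.6%. A further 11 sites, against 3.44%, were open at day 0 and in GFP+ cells with a gap between, and 8, against 2.82%, were open with CTCF shRNA alone. Of the 16 sites within 1 kb of an end of one of the 10 genes 10 were opening and 5 open in all 5 lists. Of the 18 sites at ends of neighbouring genes 2 were opening and 12 open in all 5 lists. Together 12 of these 34 sites were opening and 17 open in all 5 lists, against 11.5% and 60.1% of the sites at ends of all genes. Away from all gene ends 60 of 149 sites were opening, against 17.2%. At the rim of the windows, 9 of 24 sites from 40 to 50 kb away were opening, and just outside, 5 of 19 from 50 to 60 kb.

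**Figure D3:**
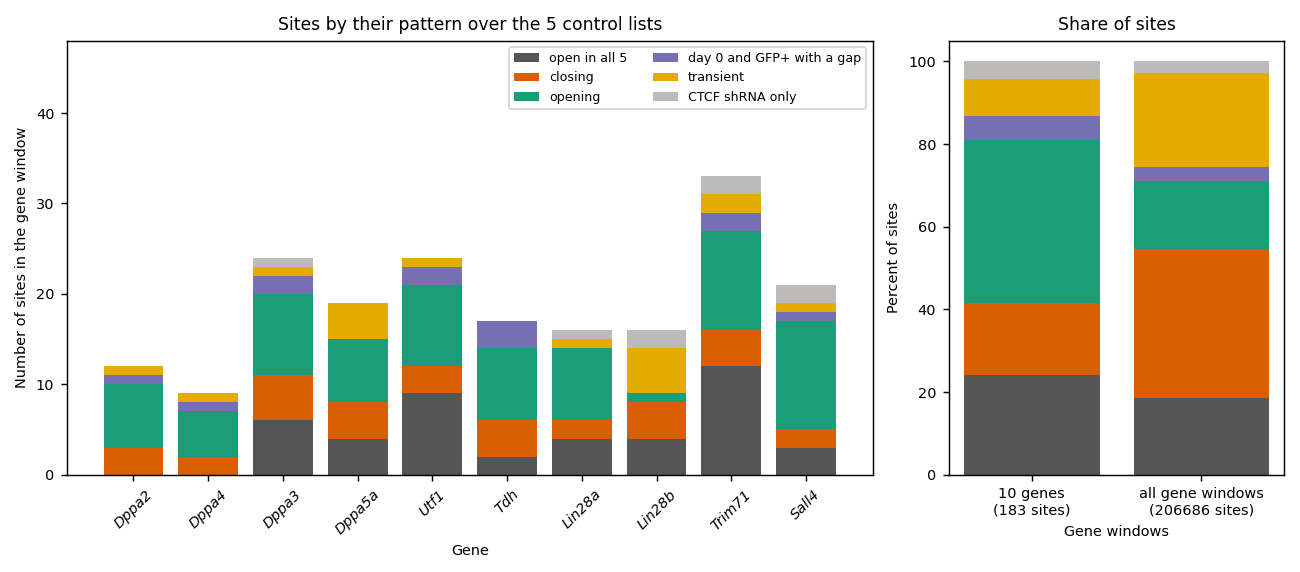
Left, number of sites in each gene's window by pattern over the 5 control lists; a site near both Dppa2 and Dppa4 is drawn for both. Right, the same classes as percent of the 183 sites near the 10 genes and of the 206686 sites near all genes; opening sites (green) make up 39.3% and 16.5%, and Lin28b has 1 of them.

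The 72 opening sites were grouped by the first control list in which they had a peak. For 29 (40.3%, interval 28.9 to 52.5) this was the GFP+ list itself, against 26.7% near all genes. For 23 (31.9%) it was the Thy1+ list, against 50.1%. The SSEA1-Thy1- list was first for 10 (13.9%, against 15.7%) and the SSEA1+ list for another 10 (13.9%, against 7.50%). Sites open in both GFP+ lists and in no other of the 10 lists numbered 18 of 183, against 2.58% near all genes.

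CTCF shRNA was compared with control shRNA in each of the 5 populations. In Thy1+ cells all 10 genes had more peaks with CTCF shRNA, 135 against 109 in all, while the list grew from 194446 to 213386. The relative log2 was 0.17 (interval -0.20 to 0.55), and the median was 0.15 over the 10 genes and -0.05 over all genes. Dppa2 and Dppa4 are not independent here, as the 1 site gained by Dppa4 was also 1 of the 2 gained by Dppa2. By the 1.5-fold rule 1 of 10 was higher (Lin28b, 9 and 14), against 3.64% of genes, and none was lower, against 1.12%. Of the 135 sites, 33 (24.4%) were gained, against 15.2% near all genes, and 7 of the control's 109 were lost, against 7.75%. Of the 33 gained sites 19 were opening sites, and the same share near all genes was not counted. Opening sites were 39.3% of all sites near the 10 genes and 16.5% near all genes. Opening sites open in Thy1+ cells went from 23 to 41 of 72 (56.9%, interval 44.7 to 68.6), and near all genes from 50.1% to 66.0%. The interval covers counting error over sites only, and both lists score the same 72 sites. Transient sites went from 8 to 13 of 16, and near all genes from 66.4% to 85.4%. Of 5 genes that lacked a gene-end peak in control cells 3 had one with CTCF shRNA (Dppa2, Dppa5a and Lin28a), against 7.11% of all such genes. None of the other 5 lost one, against 1.21%.

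In SSEA1-Thy1- cells the peaks of the 10 genes numbered 96 with control and 107 with CTCF shRNA. The relative log2 was 0.04 (interval -0.37 to 0.45), and the median was 0.14 over the 10 genes and -0.05 over all genes. Gained sites were 21, against 15.0% of sites near all genes, and lost sites 10, against 8.63%. Opening sites went from 29 to 36 of 72 (40.3% to 50.0%), and near all genes from 59.6% to 65.3%. Dppa4, with 0 and 2 peaks, was the 1 gene of 10 that was higher by the 1.5-fold rule, against 3.09% of genes, and none was lower, against 0.944%. The Lin28a start was the 1 gene-end peak gained among 4 genes without one, against 5.55%, and none of 6 was lost, against 1.62%.

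In SSEA1+ cells the peaks of the 10 genes numbered 97 and 116, and the relative log2 was -0.18 (interval -0.58 to 0.23). The median was -0.26 over the 10 genes and -0.17 over all genes. Opening sites numbered 33 and 32 of 72 (near all genes 64.8% and 61.7%), and closing sites 3 and 17 of 32 (near all genes 17.0% and 59.2%). Sites gained numbered 30 (25.9%, against 30.0%) and sites lost 11 (11.3%, against 7.67%). Of the 30 gained sites 21 were open in the day 0 control, and the same share near all genes was not counted. No gene-end peak was gained among 5 genes without one, against 9.70%, and none of the other 5 was lost, against 1.61%. Tdh, with 8 and 13 peaks, was the 1 gene of 10 that was higher by the 1.5-fold rule, against 17.9% of genes, and none was lower, against 0.960%. Fibroblast markers had 116 peaks in the control list and 199 in the other. This list thus stands apart from its control, and the part of that in the values was not tested.

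In GFP+ cells the 10 genes had 127 and 130 peaks, a relative log2 of -0.15 (interval -0.51 to 0.22). The median was -0.18 over the 10 genes and -0.10 over all genes. The 10 genes had 13 gained sites (10.0%, against 23.0%) and 10 lost ones (7.87%, against 13.7%). All 10 kept a gene-end peak, against a loss in 1.66% of all genes with one in the control (5.16% of genes without one gained it). None was past the 1.5-fold rule, against 7.51% higher and 2.35% lower. Of the opening sites 64 of 72 (88.9%) were open, against 83.8% near all genes, and since they were defined in the GFP+ control they could only be lost there. Dppa3 lost 3 sites, the most of the 10 genes, and had 17 peaks with control and 14 with CTCF shRNA. At day 0 the numbers were 87 and 89, with 5 sites gained (against 5.09% of sites near all genes), all of them opening sites, and 3 lost (against 4.65%). A site gained at day 0 could only be opening, transient or open with CTCF shRNA alone. The 5 sites were 6.94% of the opening sites, against 6.89% near all genes. None of the 10 genes was past the 1.5-fold rule, against 0.437% in each direction. The gene-end peak gained at day 0 was that of Tdh, 1 of 6 genes without one, against 2.05%, and none of 4 was lost, against 1.34%.

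**Figure D4:**
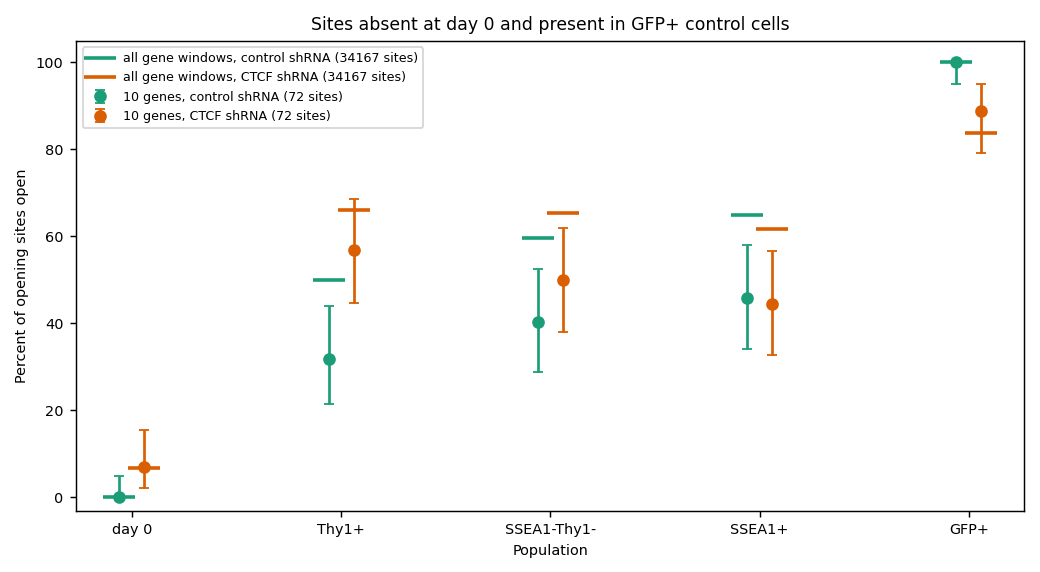
Percent of the 72 opening sites that were open in each population, with exact Clopper-Pearson 95% intervals (points), and of the opening sites of all gene windows (dashes), for control shRNA (green) and CTCF shRNA (orange). In Thy1+ cells the points are at 31.9% and 56.9%, and in SSEA1+ cells at 45.8% and 44.4%. Control points are 0 at day 0 and 100 in GFP+ cells by definition. The intervals cover counting error over sites only, and every list scores the same 72 sites.

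**Figure D5:**
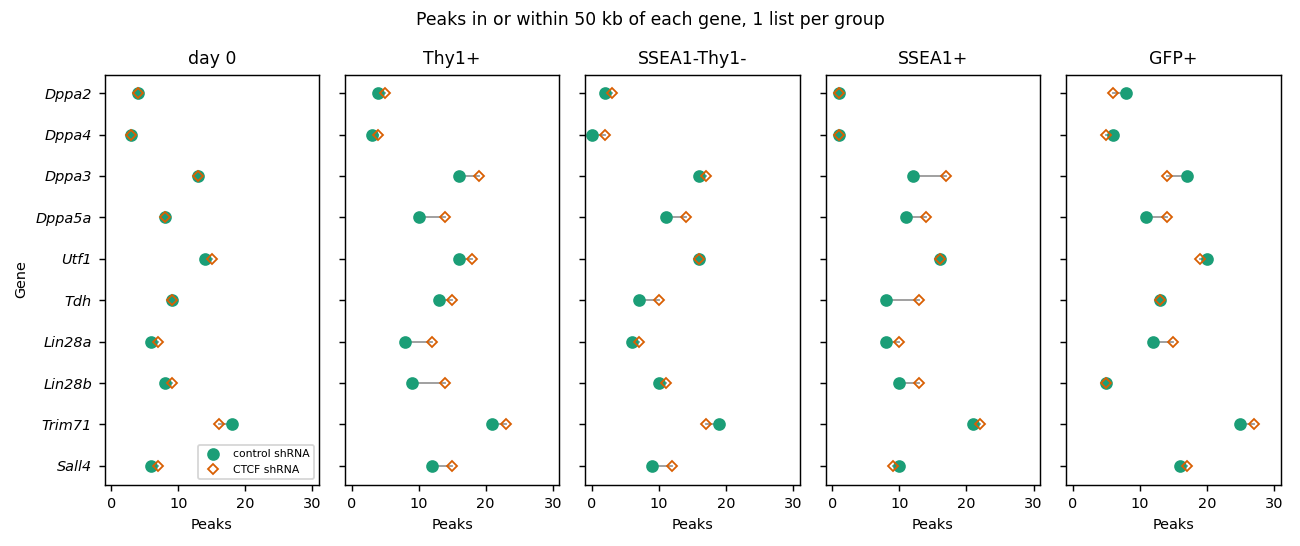
Peaks in or within 50 kb of each gene with control shRNA (circles) and CTCF shRNA (diamonds) in the 5 populations, 1 list each. In Thy1+ cells all 10 diamonds lie to the right of the circles, and in GFP+ cells 4 lie to the right, 4 to the left and 2 on top.

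Unsorted cells at day 10 were compared with CTCF overexpression and with added Smarca5 shRNA. The 10 genes had 81 peaks in the control, 85 with CTCF overexpression and 70 with CTCF overexpression and Smarca5 shRNA. The relative log2 was 0.17 (interval -0.29 to 0.63) for CTCF overexpression against control. For added Smarca5 shRNA against CTCF overexpression alone it was -0.25 (-0.73 to 0.22). For CTCF overexpression with Smarca5 shRNA against the control it was -0.08 (-0.57 to 0.40). In that order the medians were 0.10, -0.17 and 0.09 over the 10 genes, and 0.10, 0.03 and 0.13 over all genes. These comparisons share lists. Lin28a had 11, 11 and 6 peaks, Sall4 11, 14 and 9, Utf1 14, 14 and 12, Trim71 17, 17 and 16, Lin28b 6, 5 and 4, Tdh 6, 7 and 6, Dppa5a 5, 7 and 5, and Dppa3 11, 10 and 12. No gene was past the 1.5-fold rule with CTCF overexpression alone, against 2.37% higher and 7.51% lower, and no gene-end peak was gained among 3 or lost among 7, against 3.98% and 1.60%. By gene starts Lin28b lost its peak, 1 of 4 genes with a known start, against 1.08%. With added Smarca5 shRNA Lin28b had a start peak again, 1 of 1, against 1.72%. Lin28a and Sall4 were the 2 of 8 genes with a peak that were lower with added Smarca5 shRNA by the 1.5-fold rule, against 9.50% of genes, and none was higher, against 4.57%. Against the control Lin28a alone was lower, 1 of 8, against 10.6%, and none was higher, against 1.39%. The Lin28a start had a peak in all 3 lists. The gene-end peak of Dppa5a was present in the first 2 lists and absent in the third, 1 of 7 lost against 4.62%, with none gained against 2.19%. Against the control it was likewise 1 of 7 lost, against 3.90%, and none gained, against 1.85%. Of the 72 opening sites 25, 25 and 18 were open, near all genes 35.3%, 35.1% and 28.4%.

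At day 12 the 10 genes had 53 peaks with control shRNA and 50 with Smarca5 shRNA. The relative log2 was -0.11 (interval -0.69 to 0.48), and the median was -0.02 both over the 10 genes and over all genes. Gene-end peaks were lost at Dppa5a and Tdh, 2 of 7, against 1.18%, and none was gained among 3, against 1.19%. No gene passed the 1.5-fold rule in either direction, against 1.98% higher and 2.26% lower. Opening sites were open in 16 and 14 of 72 (22.2% and 19.4%), near all genes 11.8% in both lists. The Lin28b start peak was absent with control shRNA and present with Smarca5 shRNA (at day 10 it was absent with CTCF overexpression alone), and the peak at the upstream end of the gene record was present in both. This was 1 start peak gained at 1 gene without one, against 1.05% of all genes with a known start that lacked one.

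Genes that act with these 10 were counted in the same way. Of 12 genes of let-7 processing and its targets, which Lin28a and Lin28b act on, 1 was higher in GFP+ than in day 0 control cells by the 1.5-fold rule and 5 were lower, against 8.80% and 32.5% of all genes. Dicer1, which cuts the precursor, had 5 and 15 peaks. Dgcr8, Xpo5, Tut4, Dis3l2 and Hmga2, a classic let-7 target, were the lower ones, and Hmga2 had 38 and 18. Of 9 genes of threonine and glycine metabolism around Tdh, 1 was higher (Mthfd1, 9 and 16) and 1 lower (Dld, 11 and 5), against the same shares. Among Sall1, Sall2 and Sall3, Sall1 was higher (9 and 14) and none was lower, against the same shares. Of 6 genes of the 2-cell stage, such as Zscan4c, 3 had a peak in any of the 15 lists: Tcstv3 had at most 3, Usp17le 1 in each GFP+ list, and Zfp352 1 in the day 10 control. Reads from such genes with near-identical copies may not have been placed.

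The 5 genes whose peak number ran most like the mean of the 10 over the 10 day 0 and sorted lists were Rif1, Lao1, Myl10, Ndufa3 and Gprc5d, with Pearson r from 0.986 to 0.989 among 17657 genes compared. The values are log2 of peak number plus 1 minus log2 of list length, so they share the list length, whose own r with the mean of the 10 was -0.86. The 10 genes themselves ran with their mean at r from 0.84 (Dppa5a) to 0.96 (Lin28a), except Lin28b at -0.21. Each gene is part of that mean and shares the list length, so a high r is partly built in and does not show likeness.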

How the data were processed

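ATAC-seq was measured in 32 samples in 15 groups, and the authors deposited 1 list of peak intervals per group. The tools named in the submitters' processing notes are MACS2, Bowtie2, Picard, SAMtools, FastQC, cutadapt and Trim Galore, and the builds GRCm38 and mm10. No source used here gives their roles, versions or thresholds, any shift of reads for the transposase, or how samples were combined. The deposited intervals are 400 bp long and all have a score of 0, so peaks could not be ranked or filtered, and read depth is unknown.

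Overlapping intervals were merged within a list, and peaks were counted in windows of 50 kb around the 10 genes (GRCm38.p6 gene table). Sites are the merged union of the 10 day 0 and sorted lists, open where a peak overlaps by 1 bp. Promoter peaks lay within 1 kb of the start for 4 genes and of either gene end for the other 6. Peak number plus 1 was compared by a 1.5-fold rule. Python 3.11.15, numpy 2.4.6, scipy 1.17.1 and matplotlib 3.10.9 were used, and the counting was tested on simulated data. The 10 genes, the gene lists and the alternatives were chosen with earlier results of these data known. All 10 genes are named, with the 5 genes most like them and the list genes past the 1.5-fold rule from day 0 to GFP+ cells.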

Additional observations from a re-analysis of the deposited data

Results flagged for a closer look

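The window of Dppa3 went in opposite directions with CTCF shRNA in 2 populations: it had 5 more peaks than the control in SSEA1+ cells and -3 in GFP+ cells, that is 17 against 12 and 14 against 17. With 1 list per group the difference was not tested. In SSEA1+ cells the list as a whole was also longer with CTCF shRNA, 183640 against 135749 peaks.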

How the results depend on the processing

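Of 140 alternatives 139 left the value within its interval, or a count within 1.5 times. The exception was the number of the 10 genes with a promoter peak in the day 12 control list, 6 within 1 kb and 3 within 250 bp. In both GFP+ lists that number was 10 within 1 kb and 8 within 250 bp. Some alternatives could hardly move a value. All 10 genes lie on autosomes, and each peak lies whole in its site, so an overlap of 200 bp changes nothing. Dppa2 and Dppa4 have no day 10 or day 12 peaks to leave out. From day 0 to GFP+ cells the relative log2 ranged from 1.09 (windows of 100 kb) to 1.48 (20 kb). In 2 CTCF shRNA pairs the value lay near 0 and changed sign: at day 0 it was 0.03, and -0.01 with 20 kb and -0.02 with 100 kb, and in SSEA1-Thy1- cells it was 0.04, and -0.04 with 20 kb. Leaving out Dppa2 and Dppa4, leaving out peaks at ends of other genes, and taking either gene end for all 10 genes were chosen after seeing the data. No paired analysis was possible because each group has 1 peak list. For the same reason no replicate could be left out, and with a score of 0 throughout no stricter peak threshold could be set.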
